A study of Homo sapiens with 16 samples.

Results

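The 34 genes described here encode subunits of the vacuolar H+-ATPase (V-ATPase), lysosomal membrane proteins, lysosomal hydrolases and their partners, the transcription factors TFEB and TFE3, and the autophagy receptor SQSTM1. They were taken by symbol from a count table with 26229 listed genes, and all 34 were found in it. A431 cells, an epidermoid carcinoma line, and HaCaT cells, an immortalised keratinocyte line, were grown in DMEM with serum and profiled by RNA-seq as 16 libraries in 8 groups. In each line there was 1 library from cells with control siRNA (siCTRL), 3 from cells with siRNA to YAP1 (siYAP), 1 from cells with an empty vector and 3 from cells with a constitutively active YAP1 mutant (YAP5SA). The siRNA cells carried no vector and the vector cells received no siRNA. RNA from siRNA cells was taken 48 h after the second transfection, and no time is stated for the vector cells. Whether the vectors gave transient or stable expression is not stated either. Each line is a single line, and the treated libraries of a group are described as biological triplicates. The design text also mentions triplicates for control siRNA, but the labels give a single library for each control.

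The V-ATPase is a rotary proton pump. Its peripheral V1 sector hydrolyses ATP and drives a ring of proteolipid subunits in the membrane V0 sector, which moves protons into lysosomes and other compartments. Lysosomal hydrolases need the resulting acid lumen, and TFEB and TFE3 switch on many lysosomal genes through a promoter motif built around CACGTG, known as the CLEAR element. In keratinocytes lysosomes take part in protein turnover, in autophagy and in the lipid processing that precedes barrier formation.

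Promoter windows of members with this motif are shown first, because it is the sequence feature for which lysosomal genes are best known. RefSeq promoters (GRCh38.p14, from 250 bases before to 50 bases after a gene start) were matched by symbol for 24 of the 34 members. CACGTG, whose other strand has the same letters, lay in the promoters of 8 of these 24 members and in 7.26% of all 35116 RefSeq promoters. The longer GTCACGTG, searched on both strands and containing CACGTG, lay in 7 of the members and in 2.4% of all promoters. TCACGTGA, which reads the same on both strands and also contains CACGTG, lay in 5 of the members and in 0.98% of all promoters. The 24 members had 31 promoter entries, and a member counted when any of its entries held the motif. The shares of all promoters count single entries, so the 2 measures are not alike. Each line below is a stretch of 26 bases, 5′ to 3′ on the strand of the gene, with CACGTG in capitals.
ATP6V0D1: cccttatggtCACGTGaggcgcttgc
ATP6V1G1: gctgtgcggtCACGTGacaacggggg
ATP6V0B: ggcgtggggtCACGTGgtaccggcgc
LAMP1: cccgcgggatCACGTGacgcccgggc
MCOLN1: gctaccgggtCACGTGaccgaggcac
CTSA: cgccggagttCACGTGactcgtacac
CTSD: cggccgcgccCACGTGaccggtccgg

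The windows lie at chr16:67481201-67481226 (minus strand) for ATP6V0D1, chr9:114587701-114587726 (plus strand) for ATP6V1G1 and chr1:43974893-43974918 (plus strand) for ATP6V0B. Those of LAMP1, MCOLN1 and CTSA lie at chr13:113297201-113297226, chr19:7522600-7522625 and chr20:45891300-45891325, all on the plus strand, and that of CTSD lies at chr11:1763959-1763984 on the minus strand. The first base of the motif lay 59 bases before the RefSeq start of ATP6V0D1, 58 before that of ATP6V1G1 and 14 before that of MCOLN1. The match is a description of these letters and no binding was measured. NEU1 was the eighth member with CACGTG, and the 10 members without a promoter entry were ATP6V0D2, ATP6V0E1, ATP6V1A, ATP6V1B2, ATP6V1C1, ATP6V1H, CTSB, HEXA, LAMP2 and PSAP.

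The libraries held between 18115624 and 46791673 estimated counts (median 26622174). YAP1 was lower with siYAP in both lines (log2 fold change −4.02 ± 0.46 (SE) in A431 and −3.52 ± 0.45 in HaCaT). With YAP5SA it reached 1494 to 3244 CPM (counts normalised to the library total and a TMM factor) in A431, against 124 CPM with empty vector, and 7546 to 22243 against 423 CPM in HaCaT. Library 1 was the lowest YAP5SA library of each line. All 6 keratinocyte markers were at or above 1 CPM in every library of both lines, whereas 6 leukocyte and macrophage markers summed to between 0.603 and 3.99 CPM. The osteoclast markers summed to between 26.6 and 54.3 CPM in A431 and between 3.77 and 11.8 CPM in HaCaT, and the renal intercalated cell markers stayed at or below 1.35 CPM. Of the osteoclast markers ACP5 had 20.1 to 43.1 CPM in A431, and CTSK 7.75 to 10.3 CPM in the siRNA libraries of HaCaT. TNFRSF11A had 2.59 to 9.46 CPM in A431 and 0.389 to 3.96 CPM in HaCaT. CALCR stayed at or below 0.250 CPM and OCSTAMP had 0 counts in every library. The siRNA and vector cultures of HaCaT stood apart. Of 14673 tested genes 32.1% differed at least 2-fold between their single control libraries, against 5.85% in A431, and the 5 fibroblast markers summed to between 21.5 and 27.9 CPM in the 4 siRNA libraries of HaCaT but to between 0.605 and 1.79 CPM in the 4 vector libraries. In such bulk samples fewer cells of a kind and less RNA per cell cannot be told apart.

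**Figure D1:**
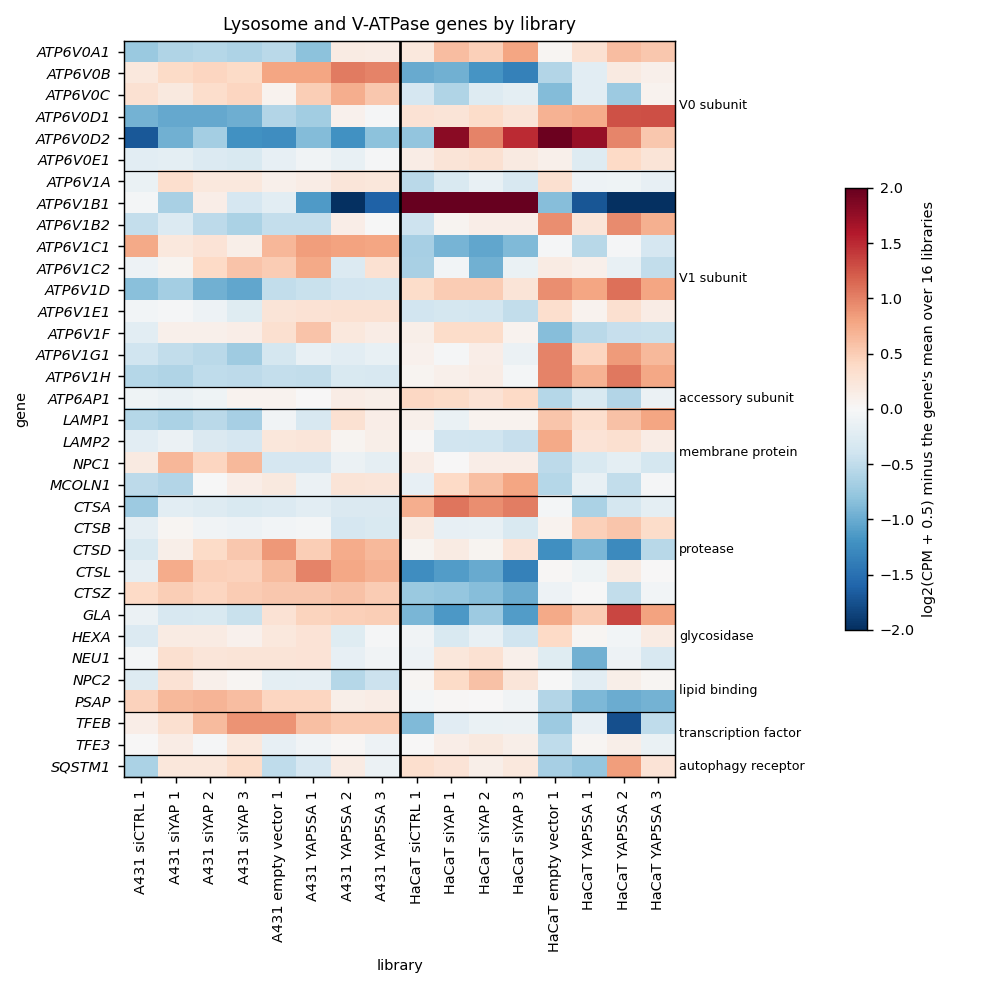
Level of each of the 34 members (rows, grouped by role) in each of the 16 libraries (columns), as log2(CPM + 0.5) minus the mean of the gene over all libraries. Colours are cut at 2 on the log2 scale, and the vertical line separates A431 from HaCaT; ATP6V1B1 and ATP6V0D2 hold the deepest colours.

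Levels of different genes were compared per kilobase of transcript, using the transcript that holds the longest coding sequence. PSAP, the precursor of the saposins that help to degrade sphingolipids, had the highest median level in both lines, at 547 CPM per kb in A431 and 326 CPM per kb in HaCaT. CTSD, an aspartic protease, and NPC2, a cholesterol carrier of the lysosomal lumen, took the next places in A431 at 237 and 190 CPM per kb, and their ranges of 134 to 302 and 146 to 264 CPM per kb overlapped. In HaCaT PSAP was followed by NPC2 at 228, ATP6V1G1 at 145, CTSD at 142 and ATP6V1E1 at 137 CPM per kb, and each neighbour in this order overlapped with the next. The lowest members of A431 were ATP6V0D2 at 0.110, ATP6V1C2 at 1.01 and MCOLN1, a lysosomal calcium channel, at 1.25 CPM per kb. ATP6V1C2, MCOLN1 and ATP6V0D2 were the lowest in HaCaT, at 0.623, 1.10 and 1.39 CPM per kb. Replicates of most members lay close together, with a median coefficient of variation over the 32 other members of 5.76% in A431 siYAP, 8.47% in A431 YAP5SA, 6.89% in HaCaT siYAP and 14.7% in HaCaT YAP5SA.

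ATP6V0D2 and ATP6V1B1 had been singled out for their values, so their levels are a description without a test. ATP6V0D2 encodes the d2 isoform of a V0 stalk subunit, known from osteoclasts and kidney, and ATP6V1B1 encodes the B1 isoform of the V1 subunit B, known from renal intercalated cells and the inner ear. ATP6V0D2 had 0 counts in A431 siCTRL, where a floor of 3 counts is 0.147 CPM, and 0.336, 0.517 and 0.200 CPM in the siYAP libraries of A431. It had 0.184 CPM with empty vector and 0.387, 0.204 and 0.417 CPM with YAP5SA in the same line. The A431 siYAP mean was thus at least 2.39-fold higher than siCTRL, on 16, 15 and 4 counts.

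In HaCaT, ATP6V0D2 was higher in every library but siCTRL, which had 8 counts or 0.437 CPM (95% Poisson interval 0.189 to 0.861, for counting error only). The siYAP libraries had 5.15, 2.72 and 4.06 CPM, the empty vector library 5.82 CPM and the YAP5SA libraries 4.94, 2.70 and 1.86 CPM. The siYAP mean was 9.11-fold above siCTRL, but the empty vector library, in which YAP1 was not targeted, was 13.3-fold above siCTRL. The siYAP and YAP5SA libraries overlapped.

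ATP6V1B1 separated the siRNA cultures of HaCaT from all other libraries. It had 73.8 CPM with siCTRL, against 67.7, 61.2 and 70.2 CPM with siYAP, so the siYAP libraries lay close to their control. With empty vector it had 2.83 CPM, which was 26.0-fold below siCTRL, and with YAP5SA it had 1.33, 0.402 and 0.306 CPM, on 52, 14 and 12 counts. In A431 it had 5.34 CPM with siCTRL, 3.36, 6.13 and 4.29 CPM with siYAP, 4.68 CPM with empty vector and 2.24, 1.02 and 1.47 CPM with YAP5SA. All YAP5SA libraries lay below the empty vector library of their line, with an empty vector value 2.97-fold above the YAP5SA mean in A431 and 4.17-fold above it in HaCaT. Other markers also differed between these cultures of HaCaT, in both directions. The 6 keratinocyte markers summed to 1530 to 2256 CPM in the siRNA libraries and to 4025 to 7277 CPM in the vector libraries, and the fibroblast markers DCN and LUM had 11.3 to 14.2 and 6.15 to 9.28 CPM in the siRNA libraries but at most 0.0765 and 0.102 CPM in the vector libraries. Of the keratinocyte markers, TP63 (221 to 283 and 178 to 339 CPM) and DSG3 (306 to 615 and 456 to 1159 CPM) overlapped between the cultures. KRT5, KRT14, KRT17 and KRT6A did not. Of the other fibroblast markers, COL1A1 had 1.69 to 5.68 and 0.605 to 1.64 CPM, and COL1A2 and PDGFRB stayed at or below 0.194 CPM. In A431 these sums went in the same directions without overlap. The keratinocyte markers summed to 2478 to 3400 CPM in its siRNA libraries and to 3921 to 4683 CPM in its vector libraries. The fibroblast markers summed to 10.1 to 14.4 and to 2.45 to 5.42 CPM, while ATP6V1B1 with empty vector lay within its siRNA range there. The part of these markers in the ATP6V1B1 levels was not tested. Of the renal intercalated cell markers, FOXI1 had at most 0.143 CPM and ATP6V1G3 had 0 counts in every HaCaT library. SLC4A1 was low but split as ATP6V1B1 did, with 0.218 to 0.464 CPM in the siRNA libraries and 0.0318 to 0.0861 CPM in the vector libraries. SLC26A4 had 0.291 to 0.694 and 0.0637 to 0.333 CPM, which overlapped. SLC4A1 had at most 13 counts and SLC26A4 at most 21 in a HaCaT library. VAX2, which shares up to 416 exonic bases with ATP6V1B1 on the same strand in GENCODE v29, stayed at or below 0.413 CPM in all 16 libraries.

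The widely expressed isoforms of the same subunits were higher per kilobase in most libraries. ATP6V1B2, which encodes subunit B2, had 34.7 CPM in HaCaT siCTRL, 48.1, 51.0 and 50.9 CPM with siYAP, 88.6 CPM with empty vector and 54.8, 89.3 and 76.6 CPM with YAP5SA. Per kilobase, ATP6V1B1 thus made up 75.9% of the summed B1 and B2 level in HaCaT siCTRL and 64.0% to 67.6% with siYAP. It made up 4.52% with empty vector and 0.589% to 3.48% with YAP5SA. In A431 ATP6V1B2 had 33.1 CPM with siCTRL, 38.4, 32.1 and 29.7 CPM with siYAP, 33.3 CPM with empty vector and 33.2, 50.7 and 46.4 CPM with YAP5SA, and ATP6V1B1 stayed between 2.90% and 22.1% of the sum.

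ATP6V0D1, the ubiquitous d1 isoform, carried nearly all of the summed d level in every library, and ATP6V0D2 made up at most 4.44% of it, in HaCaT siYAP library 1. ATP6V0D1 had 24.5 CPM in A431 siCTRL, 23.1, 23.0 and 24.0 CPM with siYAP, 31.4 CPM with empty vector and 29.04, 50.7 and 46.5 CPM with YAP5SA. In HaCaT it had 58.4 CPM with siCTRL, 57.2, 61.4 and 57.0 CPM with siYAP, 77.3 CPM with empty vector and 79.4, 115 and 117 CPM with YAP5SA. YAP5SA libraries 2 and 3 lay above library 1 in both lines.

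**Figure D2:**
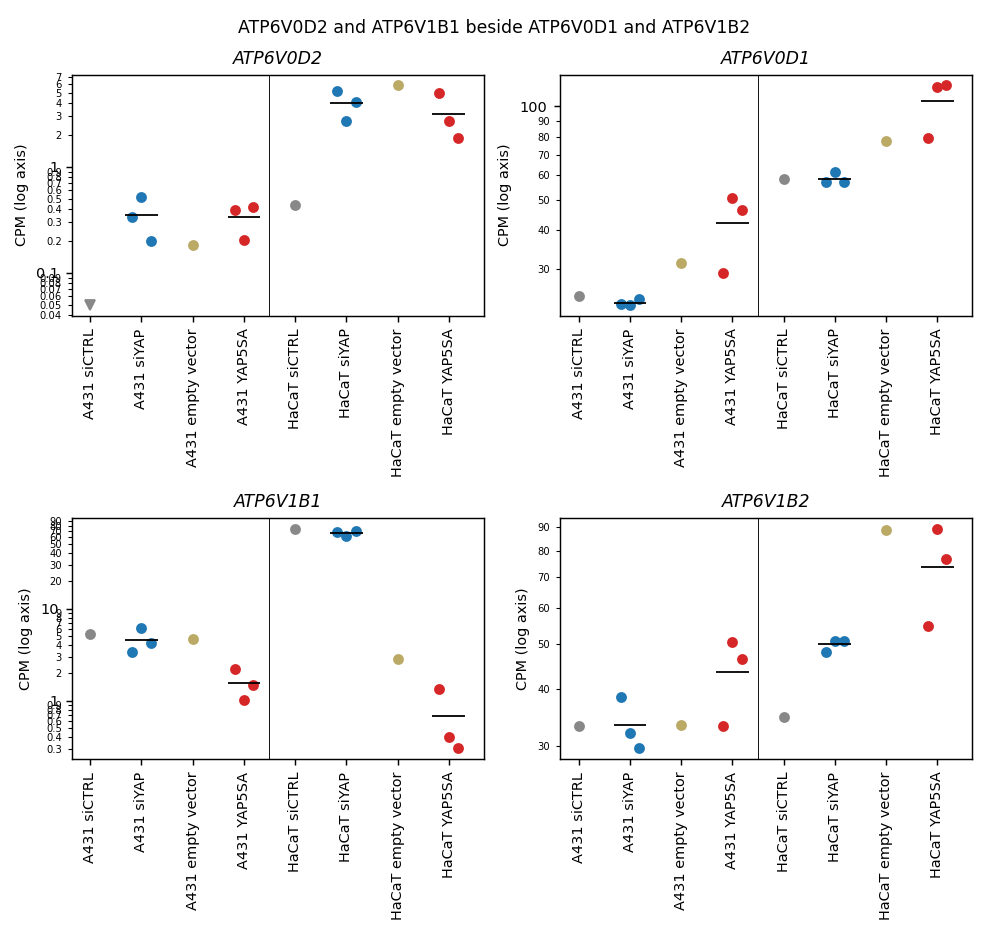
CPM on a log axis of ATP6V0D2 and ATP6V1B1 (left) and of their widely expressed partners ATP6V0D1 and ATP6V1B2 (right) in each library, by line and condition; horizontal bars are means of 3 libraries, and the downward triangle marks the library with 0 counts, which has no position on a log axis. ATP6V1B1 is above 60 CPM in the 4 siRNA libraries of HaCaT and at or below 6.13 CPM in the other 12 libraries.

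Knockdown of YAP1 addressed which genes depend on YAP in keratinocytes. Calls were made with edgeR's quasi-likelihood test and required an FDR below 0.05, taken over all 14673 tested genes, and a mean log2 CPM above 1. Of the 32 members open to a test, 31 were above this log2 CPM limit in every comparison, and ATP6V1C2 was not. In A431 1 of 32 members was called (3.12%), beside 5.6% of all tested genes, and in HaCaT 0 of 32, beside 5.67%. At an unadjusted p under 0.05 the HaCaT comparison had 3 members (9.38%, beside 20.4% of all genes), and DESeq2 called 1, LAMP2 (3.12%, beside 9.17%). Over both lines 4 members were called (12.5%), beside 13% of all tested genes. These were 3 higher and 1 lower, beside 5.3% and 7.68% of all genes in these directions. The median log2 fold change of the members was 0.14 in A431 and 0.02 in HaCaT, beside 0.03 in each line over all genes. With a block for the replicate numbers of the YAP5SA libraries, which share the estimate of the spread, 3 members were called in A431 (9.38%, beside 11.3%) and 2 in HaCaT (6.25%, beside 10.4%). A share of called members near that of all genes is no result about the group.

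The member called in A431 was CTSL, which encodes the cysteine protease cathepsin L. It had 99.4 CPM with siCTRL, against 188, 157 and 155 CPM with siYAP, so all 3 treated libraries lay above the control (log2 fold change 0.74 ± 0.18, FDR 0.0316). In HaCaT CTSL had 47.3 CPM with siCTRL, against 51.7, 55.3 and 43.6 CPM with siYAP, on both sides of the control, with a log2 fold change of 0.09 ± 0.18. The difference between the lines did not pass the test (FDR 0.33). The call in A431 was lost without A431 siYAP library 1 (log2 fold change 0.63, FDR 0.0828) or A431 siYAP library 3 (0.79, FDR 0.0569). It was also lost without HaCaT siYAP library 1 (0.74, FDR 0.0507), which is outside the comparison but shared its estimate of the spread. The reason for these losses was not tested. CTSL had 175 CPM in A431 with empty vector, within the range of the siYAP libraries. With both controls of a line taken as 1 group the log2 fold change in A431 was 0.28 ± 0.30 (FDR 0.719), and over both lines it turned from 0.41 ± 0.13 (FDR 0.0467) to −0.20 ± 0.21 (FDR 0.5). Over both lines the call was also lost without any 1 of the siYAP libraries except HaCaT library 3, and without A431 YAP5SA library 2 or 3 or HaCaT YAP5SA library 3 (FDR 0.0581 to 0.086). It was lost too with RLE factors (FDR 0.0563) and without a count filter (FDR 0.0617).

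ATP6V1A, the catalytic A subunit of V1, rose over both lines by 0.34 ± 0.09 on the log2 scale (FDR 0.022). It had 309 CPM in A431 siCTRL and 428, 393 and 392 CPM with siYAP. In HaCaT it had 233 CPM with siCTRL, against 274, 308 and 273 CPM with siYAP, so all 6 knockdown libraries lay above their control. The empty vector libraries had 364 CPM in A431 and 426 CPM in HaCaT. With both controls of a line as 1 group the log2 fold change was 0.03 ± 0.14 (FDR 0.908). The call was lost without A431 siYAP library 1 (FDR 0.0507) and without a count filter (FDR 0.0558).

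CTSA, which encodes the serine carboxypeptidase that protects neuraminidase and beta-galactosidase, also rose over both lines (0.38 ± 0.11, FDR 0.0357). It had 78.5 CPM with siCTRL, against 112, 109 and 106 CPM with siYAP in A431, and 217 CPM with siCTRL, against 276, 249 and 267 CPM with siYAP in HaCaT. All 6 knockdown libraries again exceeded their control. The call was lost without any 1 of the siYAP libraries except HaCaT library 2, without A431 YAP5SA library 3 (FDR 0.0551 to 0.0692) and with both controls as 1 group (0.42 ± 0.15, FDR 0.0539). Without a count filter it was lost too (FDR 0.0586). NEURL2, which overlaps CTSA on the other strand by up to 1038 exonic bases in GENCODE v29, had 0.229 to 3.01 CPM. PLTP, also on the other strand, shares up to 200 exonic bases with CTSA. In A431 PLTP had 133 CPM with siCTRL, against 158, 177 and 177 CPM with siYAP. In HaCaT it had 30.4 CPM with siCTRL, against 28.4, 27.3 and 26.7 CPM with siYAP. Whether strand was used in counting is not stated, and the part of PLTP in the CTSA counts was not tested.

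ATP6V1C1, the ubiquitous C subunit that links V1 to V0 and takes part in their reversible assembly, fell over both lines (−0.42 ± 0.11, FDR 0.0289). It had 258 CPM in A431 siCTRL and 176, 183 and 164 CPM with siYAP. In HaCaT it had 95.6 CPM with siCTRL, against 79.3, 73.9 and 82.2 CPM with siYAP. It was the only 1 of the 4 calls over both lines whose treated libraries also lay on the same side of the empty vector library, which had 243 CPM in A431 and 150 CPM in HaCaT. In HaCaT all siRNA libraries (73.9 to 95.6 CPM) lay below all vector libraries (104 to 150 CPM). The part of this difference in a fit that pools both controls was not tested. With both controls as 1 group the call remained (−0.58 ± 0.13, FDR 0.0079). It was lost without A431 siYAP library 1 or 3 or HaCaT siYAP library 1 or 2 (FDR 0.0503 to 0.0626).

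Other members lay to one side of the siCTRL library without passing the test. SQSTM1, a receptor that delivers ubiquitylated cargo to autophagosomes, had 203 CPM in A431 siCTRL and 368, 368 and 407 CPM with siYAP (0.91 ± 0.41, FDR 0.217), whereas in HaCaT it had 396 CPM with siCTRL, against 382, 343 and 366 CPM with siYAP. In A431 SQSTM1 was called only in some alternatives. These were each line fitted alone (7.05% of all genes called), HaCaT YAP5SA library 1 left out (8.1%) and the block for the YAP5SA libraries (11.3%). LAMP2, a major lysosomal membrane glycoprotein, had 223 CPM in HaCaT siCTRL and 168, 166 and 159 CPM with siYAP (−0.44 ± 0.13, FDR 0.0611). The HaCaT libraries of LAMP2 did not overlap with their control, but those of A431 did, at 190 CPM with siCTRL, against 203, 179 and 174 CPM with siYAP. No member passed the test of a difference between the lines in the siYAP effect, beside 0.17% of all genes, and 5 had an unadjusted p under 0.05 (15.6%, beside 11.5%).

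With YAP5SA no member was called in A431, where 0% of all tested genes were. YAP1 itself lay above its control in all 3 libraries there and was not called either (4.36 ± 0.65, FDR 0.197). No member had an unadjusted p under 0.05 there, beside 5.64% of all genes, and DESeq2 called none, beside 0.0204%. In HaCaT 4 of 32 members were called (12.5%), beside 13.6% of all genes, 2 higher and 2 lower, beside 6.99% and 6.64%. Over both lines 0 members were called, beside 2.04% of all genes, with 8 members at an unadjusted p under 0.05 (25%, beside 21.4%) and 1 called by DESeq2, LAMP2 (3.12%, beside 7.24%). Equal numbers of the YAP5SA libraries correlated between the lines, and with a block for them 8 members were called in HaCaT (25%, beside 21.5% of all genes) and 4 over both lines (12.5%, beside 9.39%). The median log2 fold change of the members was 0.08 in A431 and 0.02 in HaCaT, beside 0.02 and 0.01 over all genes.

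LAMP2 fell in HaCaT by 0.52 on the log2 scale (SE 0.13, FDR 0.0201). It had 373 CPM with empty vector and 265, 274 and 242 CPM with YAP5SA, with no overlap. In A431 it had 258 CPM with empty vector and 260, 227 and 237 CPM with YAP5SA, which overlapped the control. The HaCaT siCTRL library had 223 CPM, below all YAP5SA libraries, and with both controls as 1 group the log2 fold change was −0.20 ± 0.19 (FDR 0.514). The call was lost without HaCaT YAP5SA library 3 (FDR 0.0524). With each line fitted alone it was lost too, as were the other YAP5SA calls in HaCaT.

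ATP6V1A likewise fell in HaCaT (−0.44 ± 0.12, FDR 0.0267), from 426 CPM with empty vector to 316, 320 and 304 CPM. In A431 it had 364 CPM with empty vector and 376, 404 and 399 CPM with YAP5SA, above the control. The test of that difference between the lines gave −0.55 ± 0.17 (FDR 0.101). The HaCaT siCTRL value of 233 CPM lay below those of all YAP5SA libraries, and with both controls as 1 group the difference was −0.07 ± 0.19 (FDR 0.83). As for LAMP2, leaving out HaCaT YAP5SA library 3 ended the call (FDR 0.0649).

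The members that rose in HaCaT were ATP6V0B, a proteolipid of the V0 rotor ring, and TFE3. ATP6V0B had 38.8 CPM with empty vector and 50.8, 66.5 and 62.9 CPM with YAP5SA (0.63 ± 0.18, FDR 0.0356). In A431 it had 102 CPM with empty vector and 102, 121 and 117 CPM with YAP5SA (0.16 ± 0.17). All siRNA libraries of HaCaT had less ATP6V0B (22.7 to 29.7 CPM) than all its vector libraries (38.8 to 66.5 CPM). The part of this difference in a fit that pools both controls was not tested. With both controls as 1 group ATP6V0B kept its call in HaCaT (0.83 ± 0.20, FDR 0.0184). It lost the call without A431 siYAP library 2 or 3, A431 YAP5SA library 3 or HaCaT YAP5SA library 2 or 3 (FDR 0.0516 to 0.0762). TFE3 had 22.6 CPM with empty vector and 33.3, 35.2 and 29.5 CPM with YAP5SA (0.53 ± 0.15, FDR 0.0368), but the siCTRL library of HaCaT had 32.6 CPM, within the YAP5SA range, and with both controls as 1 group the difference was 0.24 ± 0.16 (FDR 0.333). Its call was lost without A431 YAP5SA library 3, HaCaT siYAP library 1 or HaCaT YAP5SA library 2 (FDR 0.0519 to 0.0567). In A431 TFE3 ranged from 28.8 to 37.4 CPM over all 8 libraries.

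**Figure D3:**
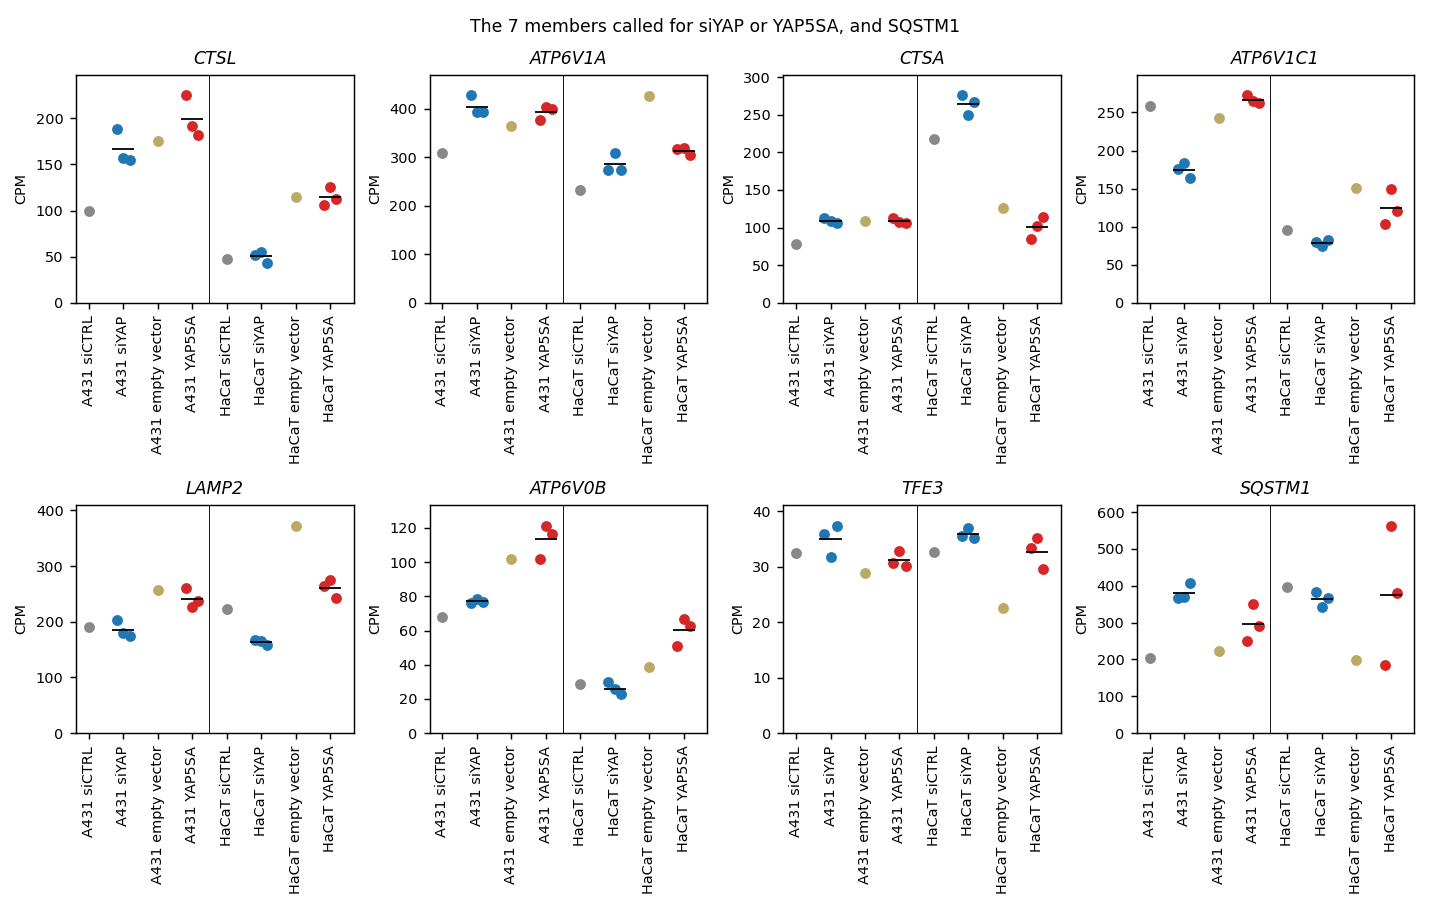
CPM in each library of the 7 members called for siYAP or YAP5SA, and of SQSTM1, by line and condition, with the mean of 3 libraries as a bar and the axis starting at 0. For CTSL in A431 the empty vector library (175 CPM) lies within the siYAP range, whereas for ATP6V1C1 all siYAP libraries lie below both controls of their line.

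YAP5SA library 1 had the lowest YAP1 count of each triplicate. In A431 it was the library apart from a closer pair on the log2 scale for 24 of the 32 members (75%, beside 66.8% of all genes), but in HaCaT for 12 (37.5%, beside 39.1%), where library 2 stood apart for 13. The genes of the next sentences were chosen after their values were seen. SQSTM1 had 198 CPM with empty vector in HaCaT and 185, 563 and 380 CPM with YAP5SA, and 222 CPM with empty vector and 251, 352 and 290 CPM with YAP5SA in A431. ATP6V0A1, the a1 isoform of the proton channel subunit, had 12.2 CPM with empty vector in A431 and 9.89, 20.2 and 19.9 CPM with YAP5SA, and 18.5 CPM with empty vector in HaCaT and 22.2, 27.9 and 26.3 CPM with YAP5SA. Library 1 was the YAP5SA library nearest to the empty vector for SQSTM1, ATP6V0A1 and ATP6V0D1 in both lines.

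When library 1 of both lines was left out, an alternative chosen after seeing the data, 2 members were called in A431 (6.25%, beside 4.33% of all genes) and 9 in HaCaT (28.1%, beside 27%). Over both lines 7 were called (21.9%, beside 21%), 4 higher and 3 lower. Those higher over both lines were SQSTM1 (0.89 ± 0.14, FDR 0.00197), ATP6V0A1 (0.64 ± 0.12, FDR 0.00383), ATP6V0D1 (0.61 ± 0.08, FDR 0.000673) and ATP6V0B (0.48 ± 0.10, FDR 0.00694). The lower ones were LAMP2 (−0.34 ± 0.08, FDR 0.0152), PSAP (−0.34 ± 0.07, FDR 0.00839) and HEXA, the alpha subunit of beta-hexosaminidase (−0.34 ± 0.10, FDR 0.0316). ATP6V1A (−0.59 ± 0.16, FDR 0.0334) and CTSB, a cysteine protease (0.66 ± 0.16, FDR 0.0261), then differed between the lines in the YAP5SA effect, beside 12.1% of all genes. With all libraries 0 members passed that test, beside 0.0886% of all genes, 4 had an unadjusted p under 0.05 (12.5%, beside 22.4%) and DESeq2 called 1, ATP6V1A (3.12%, beside 6.32%). The share of called members moved with that of all genes in each of these fits.

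**Figure D4:**
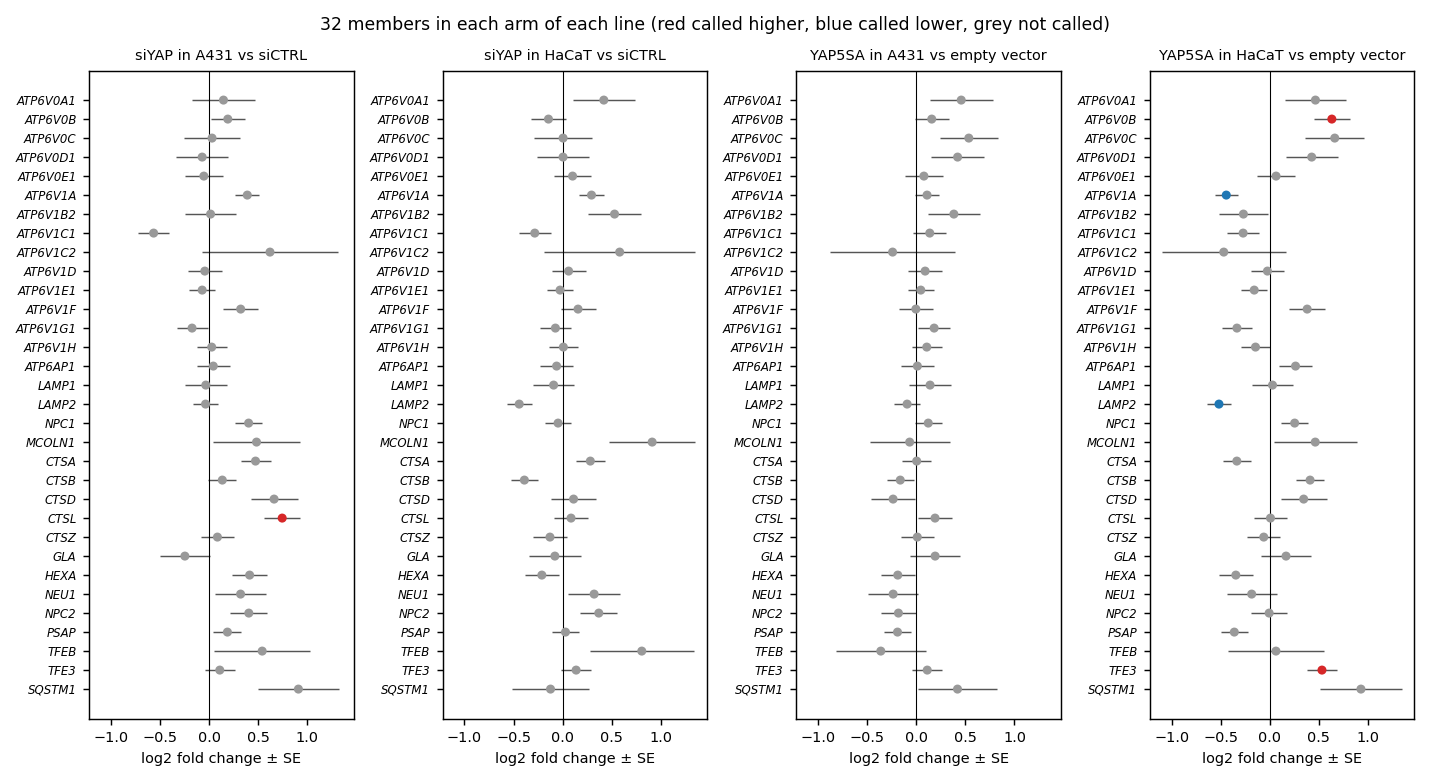
Log2 fold change with its SE (bars) for the 32 tested members for siYAP (over siCTRL) and for YAP5SA (over the empty vector), by line. Red points were called higher and blue points lower; all others, in grey, did not pass the test, and none was called with YAP5SA in A431.

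More members were called between the lines than for either treatment. Over the 4 conditions 24 of the 32 members were called between HaCaT and A431 (75%), beside 60.6% of all tested genes. In HaCaT 12 were higher and 12 lower, beside 27.5% and 33.1% of all genes. The median log2 fold change was −0.05 over the members and −0.06 over all genes. The ranges of the 8 libraries of each line did not overlap for 10 members, beside 22.6% of all genes, and HaCaT was above for 4 and A431 for 6, beside 10.3% and 12.2%. Leaving out any single treated library gave 22 to 25 called members. ATP6V1E1 lost its call without A431 siYAP library 1 or 2, A431 YAP5SA library 2 or 3, HaCaT siYAP library 1 or 3 or HaCaT YAP5SA library 1 or 3 (FDR 0.0515 to 0.163). NPC1 lost it without A431 siYAP library 1 or HaCaT siYAP library 3 (FDR 0.0687 and 0.0573), and LAMP2 without A431 siYAP library 3 or A431 YAP5SA library 3 (FDR 0.0514 and 0.0504). Since the siRNA and vector cultures of HaCaT stood apart, the lines were also compared within each kind of culture, an alternative chosen after seeing the data. Within the siRNA cultures 20 of the 32 members were called (62.5%, beside 57% of all genes). ATP6V1B2, CTSB, LAMP2 and NPC2 were no longer called, and neither were ATP6V1F and CTSD, which changed sign (0.24 ± 0.13 for ATP6V1F, FDR 0.107), while ATP6AP1 and GLA were gained. Within the vector cultures 21 were called (65.6%, beside 53.6%). ATP6V0E1, ATP6V1A, ATP6V1E1, CTSA, NPC1 and NPC2 were no longer called there, CTSA with a log2 fold change of 0.05 ± 0.10 (FDR 0.674), while ATP6AP1, GLA and NEU1 were gained. The test of the difference between the kinds of culture was passed by 13 members (40.6%, beside 40.7% of all genes).

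Subunits of the pump itself were called in both directions. Of the 14 V0 and V1 subunits tested, 7 were higher in HaCaT, 6 were lower and 1 was not called, beside 27.5% higher and 33.1% lower over all genes. ATP6V1D, the central rotor subunit of V1, had a median of 49.8 CPM in A431 (36.1 to 58.1) and 118 CPM in HaCaT (89.1 to 161), with no overlap (1.31 ± 0.09, FDR 2.46e-08). EIF2S1, on the other strand with up to 253 exonic bases shared with ATP6V1D, had 120 to 390 CPM. ATP6V0D1 had a median of 26.8 CPM in A431 (23.0 to 50.7) and 69.3 CPM in HaCaT (57.0 to 117), also without overlap (1.29 ± 0.13, FDR 1.59e-06). ATP6V1H, a regulatory V1 subunit, and ATP6V1G1, of the peripheral stalk, were the other subunits with every HaCaT library above every A431 library (0.99 ± 0.08 and 0.81 ± 0.08).

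ATP6V0B went the other way, with a median of 90.2 CPM in A431 (67.8 to 121) and 34.3 CPM in HaCaT (22.7 to 66.5), without overlap (−1.28 ± 0.09, FDR 3.54e-08). ATP6V1C1 had a median of 251 CPM in A431 (164 to 273) and 99.7 CPM in HaCaT (73.9 to 150), also without overlap (−1.09 ± 0.08, FDR 8.48e-08). ATP6V0C, the main proteolipid of the ring, had a median of 13.7 CPM in A431 (10.9 to 17.3) and 8.26 CPM in HaCaT (5.41 to 10.8), so that both proteolipids were higher in A431 (−0.82 ± 0.15 for ATP6V0C). Differences with overlapping ranges were called for ATP6V0A1 (0.86 ± 0.16), ATP6V1B2 (0.70 ± 0.13) and ATP6V0E1 (0.34 ± 0.10), which were higher in HaCaT, and for ATP6V1F (−0.38 ± 0.09), ATP6V1A (−0.25 ± 0.06) and ATP6V1E1 (−0.16 ± 0.07), which were lower. ATP6V1C2 was not called (−0.75 ± 0.34) and had at most 2.28 CPM, while PDIA6, on the other strand with up to 936 shared exonic bases, had 186 to 814 CPM. The accessory subunit ATP6AP1 was not called over the 4 conditions (−0.04 ± 0.08), a mean of opposite values. It was higher in HaCaT within the siRNA cultures (0.46 ± 0.12, FDR 0.00371) and lower within the vector cultures (−0.53 ± 0.12, FDR 0.00149).

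The 5 lysosomal proteases were all called, CTSA and CTSB higher in HaCaT and CTSD, CTSL and CTSZ lower. CTSZ, a carboxypeptidase, had a median of 107 CPM in A431 (98.4 to 113) and 48.9 CPM in HaCaT (37.4 to 74.7), with no overlap (−0.96 ± 0.09, FDR 3.29e-07). CTSL had a median of 179 CPM in A431 (99.4 to 225) and 80.6 CPM in HaCaT (43.6 to 126), and the ranges overlapped (−1.05 ± 0.09, FDR 1.91e-07). CTSD had 503 CPM in A431 (284 to 641) and 302 CPM in HaCaT (145 to 425), with overlap (−0.86 ± 0.12). Within the siRNA cultures alone CTSD did not differ between the lines (0.09 ± 0.16, FDR 0.66). CTSA had 107 CPM in A431 (78.5 to 113) and 172 CPM in HaCaT (84.4 to 276), and the difference of CTSB was smaller (0.71 ± 0.07 and 0.25 ± 0.07).

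PSAP was lower in HaCaT, with a median of 1548 CPM in A431 (1230 to 1820) and 923 CPM in HaCaT (571 to 1155) and no overlap (−0.84 ± 0.07, FDR 2.24e-07). NPC2 was higher (0.28 ± 0.09) and NPC1, the membrane protein that takes over cholesterol from it, was lower (−0.20 ± 0.07), both with overlapping ranges. LAMP1 was higher in HaCaT (0.61 ± 0.11), as was LAMP2 by a small amount (0.17 ± 0.07, FDR 0.029), and LAMP2 gave −0.03 ± 0.07 (FDR 0.663) over the treated conditions alone. TFEB had a median of 8.99 CPM in A431 (6.51 to 11.5) and 4.50 CPM in HaCaT (1.41 to 5.42), without overlap (−1.26 ± 0.25, FDR 0.000488), whereas TFE3 did not differ beyond its error (−0.06 ± 0.07). None of the 3 glycosidases GLA, HEXA and NEU1 was called over the 4 conditions, nor were MCOLN1 and SQSTM1. GLA was lower in HaCaT within the siRNA cultures (−0.73 ± 0.19, FDR 0.00363) and higher within the vector cultures (0.47 ± 0.18, FDR 0.0368), and NEU1 was lower within the vector cultures (−0.48 ± 0.18, FDR 0.0349). Of the 8 members with CACGTG in their promoter 4 were called higher and 2 lower in HaCaT, and of the 15 other tested members with a promoter entry 3 were called higher and 7 lower, beside 27.5% and 33.1% of all genes, and a difference between these sets was not tested.

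**Figure D5:**
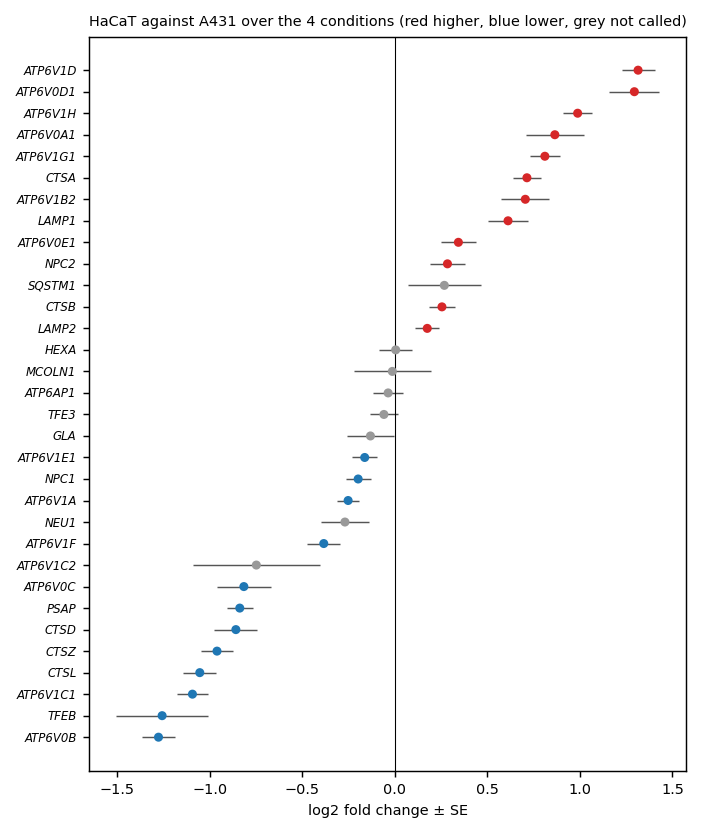
Log2 fold change of HaCaT against A431 over the 4 conditions, with its SE (bars), for the 32 tested members in order of size. The 12 members called higher in HaCaT (red) and the 12 called lower (blue) both include V-ATPase subunits, with ATP6V1D at 1.31 and ATP6V0B at −1.28 at the ends.

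The single control libraries of a line were compared by size only, on CPM + 0.5. Between empty vector and siCTRL 1 of the 32 members differed by at least 2-fold in A431 (3.12%, beside 5.85% of all genes). This was CTSD, with 284 CPM in siCTRL and 641 CPM with empty vector. In HaCaT 5 members did so (15.6%, beside 32.1% of all genes), of which GLA, ATP6V1B2 and CTSL were higher with empty vector and CTSD and SQSTM1 lower, beside 14.8% and 17.3% of all genes. On plain CPM ATP6V1C2 (0.546 against 1.34 CPM with empty vector) and ATP6AP1 (72.3 against 36.1 CPM) also reached 2-fold in HaCaT. GLA, the alpha-galactosidase A gene, had 17.3 CPM with siCTRL and 56.0 CPM with empty vector, and all 4 siRNA libraries of HaCaT (14.6 to 19.7 CPM) lay below all 4 vector libraries (47.01 to 83.7 CPM). CTSD went in the opposite direction to A431, at 365 CPM with siCTRL and 150 CPM with empty vector. Type of culture and control treatment cannot be told apart in these libraries.

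Other genes of the pathway were taken from 4 lists. These were further V-ATPase subunits, further lysosomal proteins, mainly Rag and Ragulator proteins that couple lysosomes to mTORC1, and genes of autophagy. The Rag and Ragulator list also held MITF, and the autophagy list held BECN1 and WIPI1 beside adaptors and ATG8 genes. Of the 101 genes in the 4 lists 94 were tested. With siYAP 7 were called in A431 (7.45%, beside 5.6% of all genes), 9 in HaCaT (9.57%, beside 5.67%) and 22 over both lines (23.4%, beside 13%). Of the latter 13 were higher and 9 lower, beside 5.3% and 7.68%. PPT1, a palmitoyl thioesterase, fell from 378 CPM to 222 ± 5.70 CPM (SD, n = 3) in A431 and from 441 to 207 ± 15.1 CPM in HaCaT, a difference of −0.93 ± 0.09 over both lines (FDR 6.57e-05). BECN1, a subunit of the lipid kinase complex that starts autophagosome formation, fell by 0.83 on the log2 scale (SE 0.08, FDR 6.57e-05), from 83.4 to 52.4 ± 2.14 CPM in A431 and from 96.7 to 48.7 ± 1.66 CPM in HaCaT. IDS, a sulphatase of glycosaminoglycan breakdown, rose by 1.08 ± 0.14 (FDR 0.000341), and WIPI1, an autophagy protein that binds phosphoinositides, by 1.36 ± 0.36 (FDR 0.0274). With YAP5SA 21 were called in HaCaT (22.3%, beside 13.6%), 4 higher and 17 lower, beside 6.99% and 6.64%, and 0 in A431, beside 0%. The largest called rises in HaCaT were those of LAMP3 (1.48 ± 0.43, FDR 0.038) and CD68 (1.15 ± 0.25, FDR 0.0126). CTSH, an aminopeptidase, fell from 514 to 260 ± 52.6 CPM in HaCaT (−0.98 ± 0.16, FDR 0.00516) and was the only 1 of the 94 called over both lines. In A431 CTSH changed little, from 442 CPM with empty vector to 419 ± 15.7 CPM with YAP5SA. Between the lines 59 of the 94 were called (62.8%, beside 60.6%), 34 higher and 25 lower in HaCaT, beside 27.5% and 33.1%.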

How the data were processed

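RNA was sequenced from 16 libraries. The authors deposited estimated counts per gene from RSEM (1.2.11 and hg19 in the submitters' processing notes; the paper names another version), made from trimmed paired reads on RefSeq models, unscaled and unfiltered. The 34 members, the lists and the tests were chosen with earlier results of these data known. Estimated counts were rounded, and 14673 genes with a mean above 10 counts were fitted in 1 model of 8 groups with edgeR 4.0.16 (R 4.3.3; TMM factors 0.914 to 1.07; quasi-likelihood test; prior count 0.125; 8 residual degrees of freedom). FDR values are Benjamini-Hochberg adjusted over the tested genes of each comparison. Log2 fold changes are given ± SE, computed as the size divided by the root of F. CPM used totals over all listed genes and TMM factors. Named were members called in any comparison, ATP6V0D2, ATP6V1B1 and their partners, and, of other lists, some of the called genes with the largest changes in a comparison. SQSTM1 was described after its values were seen. Transcript lengths and exonic overlaps came from GENCODE v29, which may differ from the authors' models. Alternatives included DESeq2 1.42.0, RLE factors, other count filters, other controls and leaving out libraries. The fit was tested on simulated data. Of the listed genes 4970 had no count, 28 symbols had become dates and 4 rows repeated a symbol; none of these was named.

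Depth ranged from 18115624 to 46791673 estimated counts, so 3 counts corresponded to 0.0630 to 0.164 CPM. Equal replicate numbers of the YAP5SA libraries correlated between the lines (3 of 3 correlations of their deviations above 0.1, 0.13 to 0.35). This is a hint from the data, not the design. A431 YAP5SA library 2 correlated more with HaCaT YAP5SA library 3 (0.257) than with library 2 (0.137). Of the siYAP libraries 2 of 3 same-number pairs between the lines passed 0.1 (0.018 to 0.227), and of A431 siYAP with HaCaT YAP5SA 1 of 3.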

Additional observations from a re-analysis of the deposited data

Results flagged for a closer look

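The difference between vector and siRNA cultures was tested between the lines in the same edgeR fit, as HaCaT minus A431, a test added after seeing the data. It was called for 13 of the 32 members (40.6%), beside 40.7% of all genes. The log2 difference was positive for ATP6V1A (0.41), ATP6V1B2 (0.76), ATP6V1G1 (0.55), ATP6V1H (0.72), CTSL (0.69), CTSZ (0.57) and GLA (1.198). It was negative for ATP6AP1 (−0.99), ATP6V1F (−1.25), CTSA (−1.32), CTSD (−1.89), MCOLN1 (−1.34) and PSAP (−0.52). Each arm of a line has 1 control library, so culture and control treatment cannot be told apart.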

How the results depend on the processing

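The count of called members (of 32) is given for each comparison, with the share of all tested genes called in the same fit. For siYAP in A431 the count of 1 (5.6% of all genes) became 4 with DESeq2 (9.52%), 4 with each line fitted alone (7.05%), 0 with siCTRL and empty vector as 2 controls of 1 group (1.35%) and 0 when a 2-fold change was also required (2.07%). Leaving out 1 treated library gave 0 to 4. For siYAP in HaCaT the count of 0 (5.67%) became 1 with DESeq2 (9.17%) and 5 with 2 controls (20%), and 0 to 1 with 1 library left out. Over both lines the count of 4 (13%) became 1 without a count filter (7.35%) and 0 with the 2-fold limit (2.21%), and lay between 0 (without A431 siYAP library 1; 9.58%) and 5 with 1 library left out. For YAP5SA in HaCaT the count of 4 (13.6%) became 2 without a count filter (7.49%), 0 with the 2-fold limit (5.14%), 0 with each line fitted alone (4.51%) and 9 without library 1 of both lines (27%), and lay between 1 (without HaCaT YAP5SA library 3) and 6 with 1 library left out. In A431 the count of 0 (0%) became 2 without library 1 of both lines (4.33%) and stayed at 0 with any 1 library left out. Over both lines the YAP5SA count of 0 (2.04%) became 1 with DESeq2 (7.24%), 2 with 2 controls (5.22%) and 7 without library 1 of both lines (21%), and lay between 0 and 4 (without A431 YAP5SA library 1; 8.3%). The difference of the YAP5SA effect between the lines went from 0 (0.0886%) to 1 with DESeq2 (6.32%) and to 2 without library 1 of both lines (12.1%), and from 0 to 1 with 1 library left out. The difference of the siYAP effect stayed at 0 in each. HaCaT against A431 went from 24 (60.6%) to 6 with the 2-fold limit (21.5%) and lay between 22 and 25 with 1 library left out. The cause was not tested.

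Of 198 values for the 9 calls with siYAP or YAP5SA under an alternative, 140 kept their direction and call, and 57 lost the call. The 4 reversals were CTSL with siYAP over both lines with 2 controls (−0.20) and, between the lines, LAMP2 in the treated conditions alone (−0.033) and ATP6V1F (0.24) and CTSD (0.086) in the siRNA conditions alone.

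A replicate block over all 12 treated libraries moved the siYAP count in HaCaT from 0 to 1 (LAMP2) and changed no other count of called members. Only between the YAP5SA libraries of the lines did all same-number pairs correlate above 0.1. A block for these 6 libraries, added after seeing the data, moved siYAP in A431 to 3 and siYAP in HaCaT to 2. It moved YAP5SA in HaCaT to 8 and YAP5SA over both lines to 4, and no other count. Over all groups 6 of 18 same-number pairs correlated above 0.1 (−0.03 to 0.35), and the own number was the best match in 18 of 36 tests.

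Each arm of each line rests on 1 control library, so the spread between control cultures was not measured. ATP6V0D2 had at most 16 counts in A431, which limits its folds.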
